A study of Homo sapiens with 12 samples.

Results

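Tryptophan breakdown and the cell's handling of its products were examined through 10 genes in U251 cells, an established human glioblastoma line, transfected with siRNAs against *PD-L1*. The genes were selected by name and were *IDO1*, *IDO2*, *TDO2*, *AFMID*, *KYNU*, *KMO*, *HAAO*, *QPRT*, *WARS1* and *AHR*. All 10 were found among the 45416 genes of the deposited table, and 8 passed a filter on low counts. *IDO2* and *HAAO* did not pass, and their reads are given without a test. The siRNA was siPDL1-1 or siPDL1-2, both directed at *PD-L1*, or the control siNC, and each was followed by IFNγ at 100 U/ml for 24 h, starting 48 h after transfection, or by no stimulation. Each of the 6 groups had 2 libraries, 12 in all, and none came from untransfected cells. Knockdown was transient, in a line listed as wild type, and the methods describe 2 independent experiments without saying which library belongs to which.

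Most tryptophan that is not used for protein is opened to N-formylkynurenine by *IDO1*, *IDO2* or *TDO2*, and *AFMID* releases kynurenine from it. *KYNU*, *KMO*, *HAAO* and *QPRT* carry kynurenine on through anthranilate, 3-hydroxykynurenine and quinolinate to NAD precursors, while kynurenine itself can bind the transcription factor encoded by *AHR*. *WARS1* charges tRNA with the same amino acid, and both *IDO1* and *WARS1* are well known for induction by IFNγ, with *IDO1* studied in glioma as an enzyme that restrains T cells by depleting tryptophan.

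Read totals on genes ranged from 17101069 to 55657393 per library, so that a single read was worth 0.0187 to 0.0586 normalized CPM, the deposited depth-scaled unit. In unstimulated cells the targeted gene, listed as *CD274*, averaged 4.76 CPM with siNC, 2.70 CPM with siPDL1-1 (log2 fold change -0.64, FDR = 1.76e-05) and 3.51 CPM with siPDL1-2 (-0.35, FDR = 0.00183). After IFNγ the averages of *CD274* were 73.6, 63.8 (-0.20, FDR = 0.0498) and 36.3 CPM (-1.001, FDR = 4.25e-07). A gene was called when its FDR (limma) was under 0.01 and its fold change over 1.5, both on log2(CPM + 1). By this rule the targeted gene was called lower with siPDL1-1 without IFNγ and with siPDL1-2 after IFNγ, and not in the other 2 comparisons with siNC. The glial markers *VIM*, *CD44*, *SOX2* and *SLC1A3* were present in every library at 63.6 CPM or more, whereas *GFAP* reached 7.25 CPM at most and *OLIG2* and *AQP4* stayed at or under 0.364 CPM. Of 6 immune cell markers, *CD3E*, *TYROBP* and *AIF1* reached at most 0.0586 CPM and *PTPRC* 0.176 CPM, and the summed list (29.1 to 81.6 CPM) was nearly all *CD68*. Endothelial and neuronal markers summed to 5.98 to 10.6 CPM.

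The promoters of *WARS1* are shown because *WARS1* was 1 of the 2 genes raised by IFNγ in every siRNA group and has a pair of annotated start sites. Promoter windows of 300 bases from RefSeq (GRCh38.p14) matched 8 of the 10 genes, in 10 windows, and *IDO1* and *IDO2* had no entry. The 250 bases before each *WARS1* start site are printed 5′ to 3′ on the gene's minus strand, with capitals for an interferon-stimulated response element core (GAAA, any 2 bases, GAAA) and a gamma-activated site (TTC, any 3 bases, GAA).
WARS1 upstream start site, chr14:100376328-100376577: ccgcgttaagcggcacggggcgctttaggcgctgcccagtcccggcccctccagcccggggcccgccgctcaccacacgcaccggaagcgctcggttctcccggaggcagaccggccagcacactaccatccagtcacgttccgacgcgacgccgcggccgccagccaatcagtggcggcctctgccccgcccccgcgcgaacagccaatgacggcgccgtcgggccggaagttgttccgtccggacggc
WARS1 downstream start site, chr14:100375348-100375597: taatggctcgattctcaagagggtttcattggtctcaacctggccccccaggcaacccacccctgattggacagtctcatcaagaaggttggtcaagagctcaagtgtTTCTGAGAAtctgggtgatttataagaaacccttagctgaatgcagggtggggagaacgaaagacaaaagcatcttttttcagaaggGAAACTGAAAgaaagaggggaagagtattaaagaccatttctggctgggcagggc
The downstream window held GAAACTGAAA starting at -55 and TTCTGAGAA starting at -142, counted from 0 at the start site, and the upstream window held neither motif. Searched on both strands, the first motif was in 3.57% of 35116 RefSeq promoter windows, the second in 7.66% and both in 0.439%. Among the other members, *KYNU* had the gamma-activated site letters at -34 and at 5, without the response element core. The core of the site bound by the AHR protein, GCGTG, was in 1 window of *AFMID* and of *AHR* and in both of *WARS1*, against 36.5% of all windows. These matches describe letters in a window and were not tested for binding.

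Per kilobase of annotated exon, the 10 genes spanned a wide range of levels before stimulation. In unstimulated siNC cells *WARS1* averaged 14.2 CPM per kb, *AFMID* 4.32, *TDO2* 1.26, *KYNU* 0.585 and *QPRT* 0.106 CPM per kb. *KMO* (0.0566), *AHR* (0.0449) and *IDO1* (0.0426 CPM per kb) followed, and the libraries of *IDO1* overlapped those of both *KMO* and *AHR* on this scale. *IDO2* and *HAAO* had no read in either of these libraries. After IFNγ in siNC cells *WARS1* was at 442 CPM per kb and *IDO1* at 147 CPM per kb, ranks 59 and 204 of 17922 genes, where they had been at ranks 2932 and 17305. The order of the genes below them was otherwise as before.

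**Figure D1:**
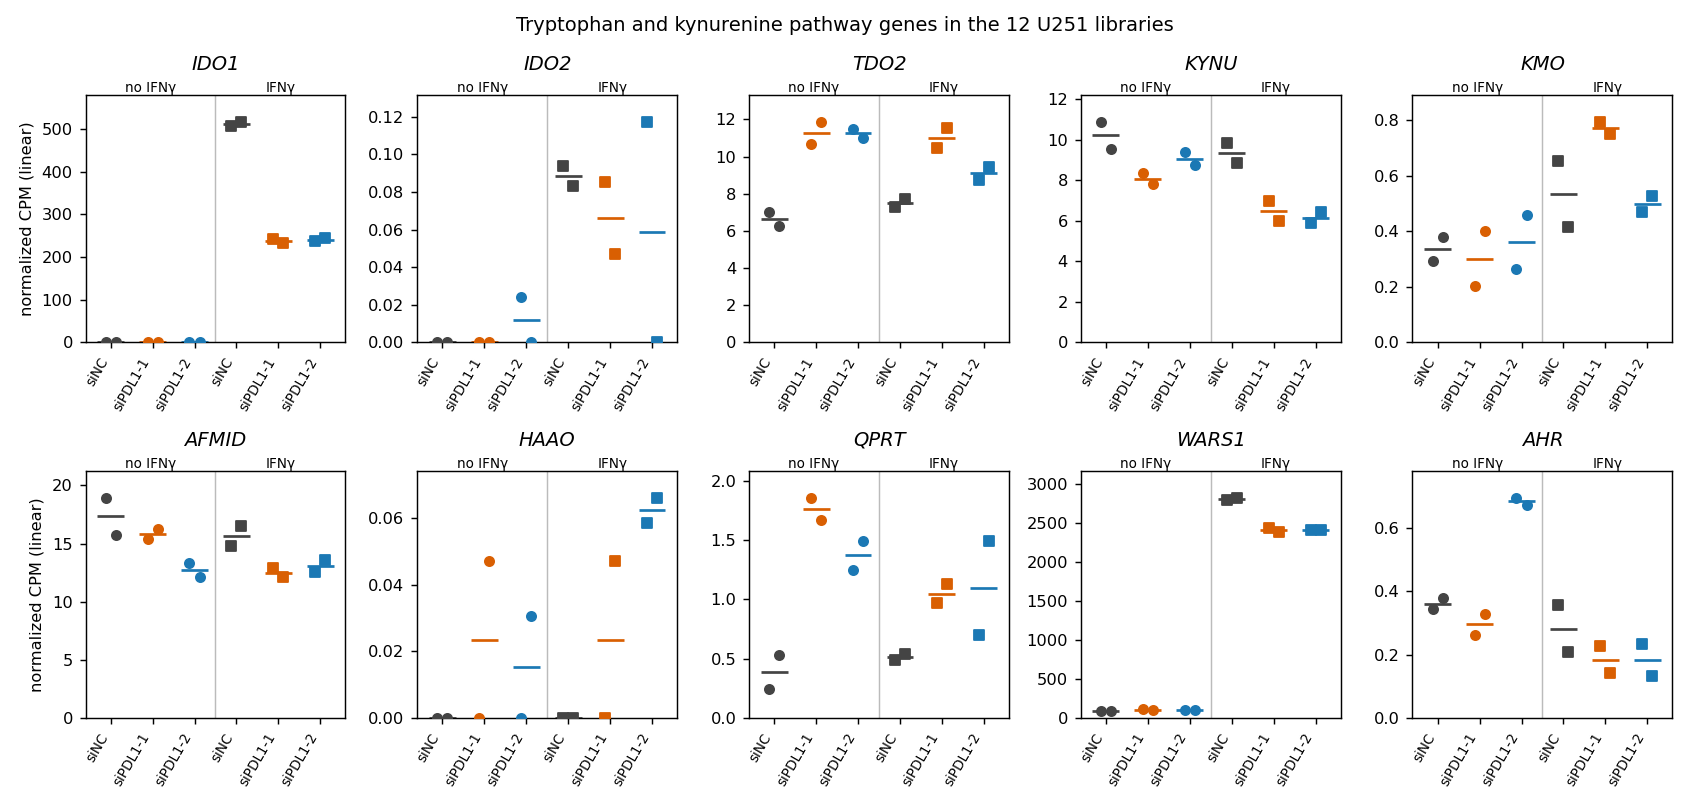
Normalized CPM (linear axis from 0, a separate scale in each panel) of the 10 genes in the 12 libraries, with circles for unstimulated cells, squares for IFNγ and a line at the mean of each group of 2. *IDO1* and *WARS1* stand high only in the 6 IFNγ libraries, and *TDO2* and *QPRT* stand above siNC in the unstimulated siPDL1-1 and siPDL1-2 libraries.

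IFNγ raised 2 of the 8 genes tested, *IDO1* and *WARS1*, and did so with siNC, with siPDL1-1 and with siPDL1-2. Over all 17982 genes tested, 8.12% were called in either direction with siNC, 6.87% with siPDL1-1 and 5.27% with siPDL1-2. The shares called higher were 6.67%, 5.58% and 3.62%. *IDO1*, on chromosome 8 from 39902275 to 39928790, had 0.196 and 0.101 CPM in the unstimulated siNC libraries, 0 and 0.0235 CPM with siPDL1-1, and 0.0958 and 0.0610 CPM with siPDL1-2. These values rest on 8, 1 and 6 reads per group. After IFNγ it had 508 and 516 CPM with siNC, 243 and 233 CPM with siPDL1-1, and 237 and 244 CPM with siPDL1-2. No unstimulated library came near any IFNγ library, and *IDO1* had the highest log2 fold change of the 17982 genes with siNC. In bulk RNA, a change in the number of cells that transcribe a gene and a change in RNA per cell cannot be told apart.

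The size of the *IDO1* response depended on how its near absence was treated. On log2(CPM + 1) the log2 fold changes were 8.80 with siNC (FDR = 6.3e-20), 7.88 with siPDL1-1 (FDR = 2.38e-19) and 7.81 with siPDL1-2 (FDR = 3.67e-19). As a plain ratio of pooled reads scaled to depth, it was 3834-fold with siNC (95% exact interval 1946 to 8881), 18410-fold with siPDL1-1 (3303 to 727100) and 2997-fold with siPDL1-2 (1377 to 8169). The intervals cover counting error only, and they overlap between the siRNAs.

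*WARS1*, on the minus strand of chromosome 14 from 100333790 to 100376805, was already expressed without IFNγ. It had 89.9 and 91.2 CPM with siNC, 111 and 108 CPM with siPDL1-1, and 108 and 102 CPM with siPDL1-2. After IFNγ the libraries had 2797 and 2825 CPM with siNC, 2441 and 2387 CPM with siPDL1-1, and 2406 and 2413 CPM with siPDL1-2. The *PD-L1* siRNA libraries were therefore above siNC before stimulation and below it afterwards, with no overlap in either state. The log2 fold changes of *WARS1* with IFNγ were 4.94 (FDR = 2.75e-20), 4.45 (FDR = 1.28e-19) and 4.51 (FDR = 1.06e-19), and with siNC it ranked 16 of 17982 genes.

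The rise of *WARS1* was not shared by the other cytosolic aminoacyl-tRNA synthetases, the enzymes that charge tRNA with the remaining amino acids. Of 19 tested, limma called 0 with IFNγ in siNC, siPDL1-1 or siPDL1-2 cells, as did edgeR and DESeq2. At an unadjusted p under 0.05, 3 were higher and 11 lower with siNC, 3 higher and 12 lower with siPDL1-1, and 4 higher and 7 lower with siPDL1-2. Their median log2 fold changes were -0.17, -0.12 and -0.03, beside medians over all genes of 0.0012, -0.016 and -0.015, and the highest single value was 0.52 with siPDL1-2. *WARS2*, the mitochondrial tryptophanyl-tRNA synthetase, had 91.7 and 93.5 CPM unstimulated and 118 and 121 CPM after IFNγ with siNC, a log2 fold change of 0.36 (FDR = 1.27e-05) that was below the fold threshold.

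**Figure D2:**
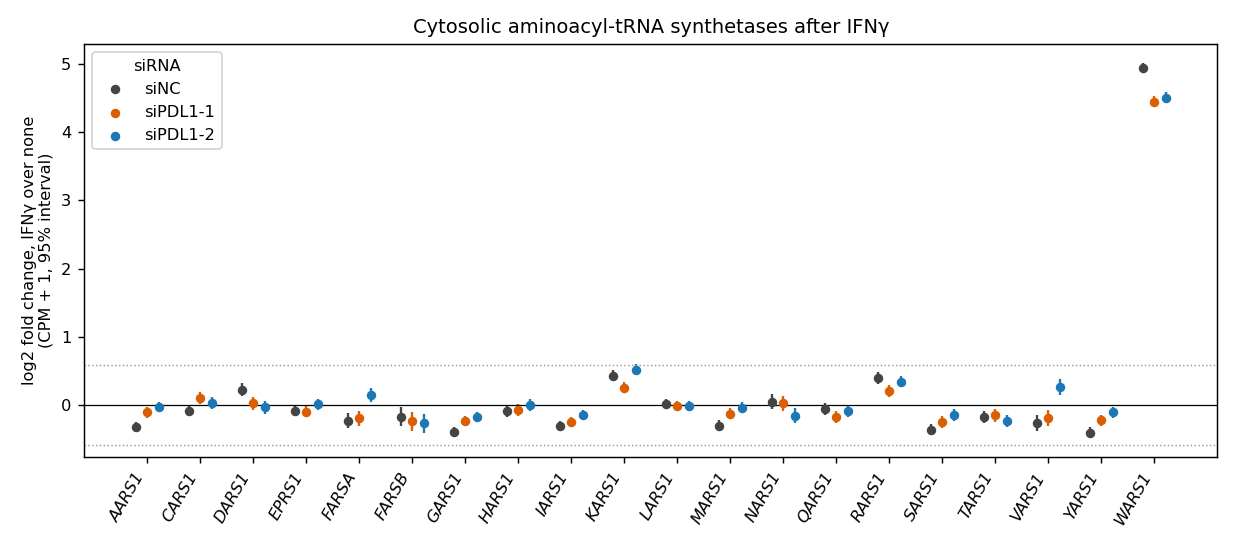
Log2 fold change of CPM + 1 with IFNγ over no stimulation (vertical axis, 95% interval as a line) for 19 cytosolic aminoacyl-tRNA synthetases and *WARS1*, with 1 point for each siRNA and dotted lines at a fold change of 1.5. *WARS1* lies between 4.45 and 4.94, and the other 19 genes lie between -0.40 and 0.52.

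None of the remaining 6 genes tested was called with IFNγ in any siRNA group. *IDO2*, the neighbour and paralog of *IDO1*, had 1 read in the 6 unstimulated libraries and 15 in the 6 IFNγ libraries (9 with siNC, 4 with siPDL1-1 and 2 with siPDL1-2), the highest single library being 0.117 CPM. *TDO2* had log2 fold changes of 0.16 with siNC, -0.03 with siPDL1-1 and -0.28 with siPDL1-2, the last at FDR = 0.0344. *KYNU* had -0.11, -0.28 and -0.49, the last at FDR = 0.00203 but below the fold threshold. *AHR* had 0.695 and 0.671 CPM in unstimulated siPDL1-2 cells and 0.235 and 0.132 CPM after IFNγ (log2 fold change -0.51, FDR = 0.00322). That change was also below the fold threshold on log2(CPM + 1), and the edgeR quasi-likelihood test on 51 against 8 reads called it (-1.97, FDR = 0.00878). The reads of *AHR* are uncertain, since other genes overlap it, as given below.

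Without IFNγ the question was whether *PD-L1* siRNA alone moved these genes, and *TDO2* and *QPRT* rose with each siRNA. With siPDL1-1, 2 of 8 genes were called, beside 4.0% of all genes in either direction and 2.55% called higher. With siPDL1-2, 2 of 8 were called, beside 6.17% in either direction and 4.84% called higher. Both comparisons use the same pair of siNC libraries, so they are given side by side and are not independent. The other 6 genes were not called with either siRNA. Of these, *IDO1*, *KMO* and *AHR* lay at or under 0.380 CPM in the unstimulated siNC libraries. With the added 1, a fall of these genes could not reach the fold threshold. With a pseudocount of 0.1 in limma, *IDO1* was called lower with siPDL1-1 (-1.13, FDR = 1.06e-04), on 1 read against 8. The edgeR value was -3.08 (FDR = 0.0175), not called.

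*TDO2*, another enzyme that opens the tryptophan ring (chromosome 4 from 155854738 to 155920406), had 7.00 and 6.25 CPM with siNC, 10.7 and 11.9 CPM with siPDL1-1, and 11.5 and 11.0 CPM with siPDL1-2. All 4 *PD-L1* siRNA libraries were above both siNC libraries. Its log2 fold change was 0.69 with siPDL1-1 (FDR = 5.23e-05) and 0.68 with siPDL1-2 (FDR = 3.79e-05). As a ratio of mean CPM without the added 1, *TDO2* was at 170% of siNC with each. The siRNAs differed by 0.0014 on the log2 scale, with a 95% interval of -0.20 to 0.20. *TDO2* overlaps *ASIC5* on the opposite strand, which averaged 0.242 CPM.

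*QPRT*, which turns quinolinate into a NAD precursor (chromosome 16 from 29663279 to 29698699), was low throughout. It had 0.245 and 0.531 CPM with siNC (5 and 21 reads), 1.86 and 1.67 CPM with siPDL1-1 (64 and 71 reads), and 1.25 and 1.495 CPM with siPDL1-2 (52 and 49 reads). The groups did not overlap, and the siNC libraries differed from each other more than the *PD-L1* siRNA libraries did as a ratio. Its log2 fold change was 1.00 with siPDL1-1 (FDR = 2.53e-04) and 0.78 with siPDL1-2 (FDR = 0.0013). As a ratio of mean CPM without the added 1, *QPRT* was at 454% and 353% of siNC. The siPDL1-2 call was lost without the first siNC library (0.63, FDR = 0.0231) and without the second siPDL1-2 library (0.70, FDR = 0.0196). *QPRT* overlaps *SPN* on the same strand, which averaged 0.575 CPM against 1.03 CPM for *QPRT*, so the assignment of reads between them is uncertain.

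*WARS1* had log2 fold changes of 0.27 (FDR = 4.2e-05) with siPDL1-1 and 0.21 (FDR = 2.45e-04) with siPDL1-2 before stimulation, both under the fold threshold. *AFMID*, the formamidase (chromosome 17 from 78187317 to 78207701), had 19.0 and 15.7 CPM with siNC, 15.4 and 16.2 CPM with siPDL1-1, and 13.3 and 12.2 CPM with siPDL1-2. Only the siPDL1-2 libraries lay apart from siNC, and their log2 fold change of -0.41 (FDR = 0.00254) was below the fold threshold.

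*AHR*, the kynurenine-binding receptor (chromosome 7 from 16916359 to 17346152), had 0.343 and 0.380 CPM with siNC, 0.261 and 0.330 CPM with siPDL1-1, and 0.695 and 0.671 CPM with siPDL1-2. The siPDL1-2 libraries were the highest of the 12 for *AHR*, and the difference from siNC did not pass (log2 fold change 0.31, FDR = 0.0387). *AHR* overlaps *AC073332.1* on the opposite strand, which averaged 0.598 CPM, and *AC019117.3* on the same strand, which averaged 0.210 CPM. Beside a mean of 0.33 CPM for *AHR*, and with strand not used in counting, its values are uncertain.

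After IFNγ, *IDO1* fell with each *PD-L1* siRNA and was the only 1 of the 8 genes called. The share called over all genes in either direction was 5.47% with siPDL1-1 and 3.13% with siPDL1-2, again with shared siNC libraries. The shares called lower were 1.75% and 1.2%. All 4 *PD-L1* siRNA libraries of *IDO1* lay between 233 and 244 CPM, under the siNC libraries at 508 and 516 CPM. The group means were 46.5% of siNC with siPDL1-1 and 47.0% with siPDL1-2, for log2 fold changes of -1.10 (FDR = 1.57e-08) and -1.09 (FDR = 6.31e-08).

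Between the siRNAs *IDO1* differed by -0.015 on the log2 scale, with a 95% interval of -0.16 to 0.13. For *CD274* in the same libraries siPDL1-1 was above siPDL1-2 by 0.80 on the log2 scale (FDR = 3.07e-06). Of the immune markers, *CD68* was also higher in the siPDL1-1 libraries after IFNγ, at 74.6 and 80.2 CPM against 41.7 and 41.0 CPM with siNC and 46.9 and 50.5 CPM with siPDL1-2, while *PTPRC* had 0.0567 and 0.0470 CPM there and *CD3E*, *TYROBP* and *AIF1* had no read. *LST1*, the other marker of the list, had 0.880 and 1.36 CPM there against 0.506 and 0.809 CPM with siNC (log2 fold change 0.35, unadjusted p = 0.0265, FDR = 0.0692). Their part in the result was not tested.

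**Figure D3:**
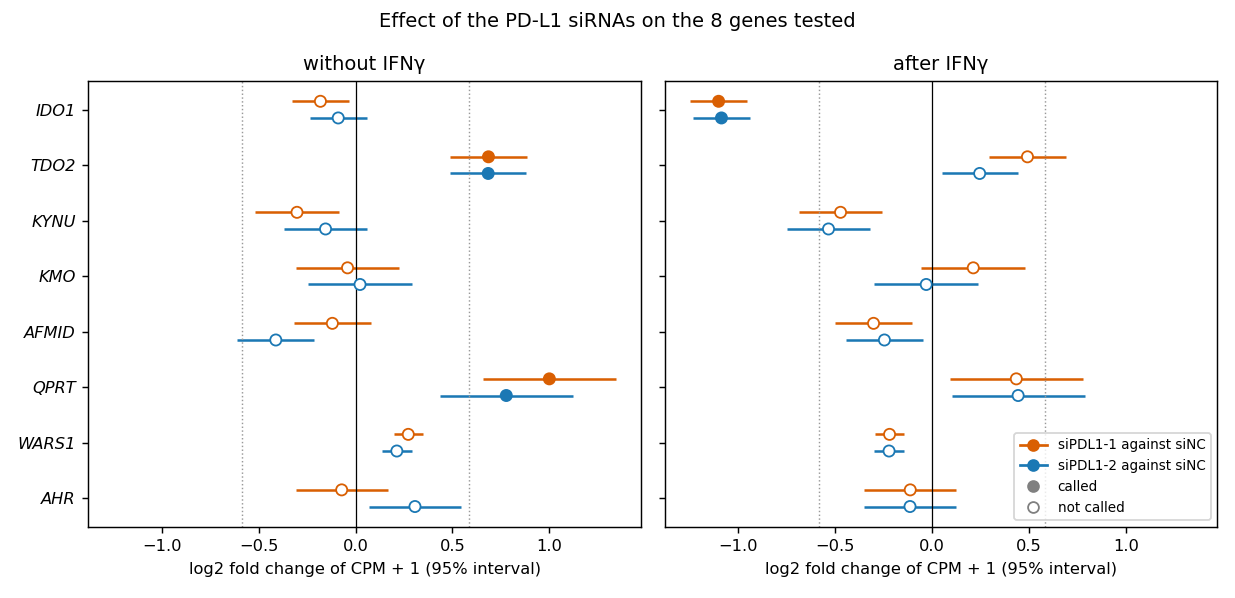
Log2 fold change of CPM + 1 against siNC (horizontal axis, 95% interval as a line) for the 8 genes tested, without IFNγ at left and after IFNγ at right, with filled points where the gene was called and dotted lines at a fold change of 1.5. *TDO2* and *QPRT* are filled on the right-hand side of 0 without IFNγ, and *IDO1* alone is filled after IFNγ, at -1.10 and -1.09.

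To place this fall among other genes of the response, the 1200 genes raised by IFNγ in siNC cells were set beside it. The siNC IFNγ libraries enter both the choice of these genes and the comparison, so their values are a description. The median log2 fold change of the 1200 genes was -0.041 with siPDL1-1, where 47 were called lower and 150 higher, and -0.17 with siPDL1-2, where 68 were called lower and 13 higher. With each siRNA 6 of the 1200 had a lower value than *IDO1*. *WARS1* lay nearer the middle, with 337 lower values with siPDL1-1 and 490 with siPDL1-2.

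**Figure D4:**
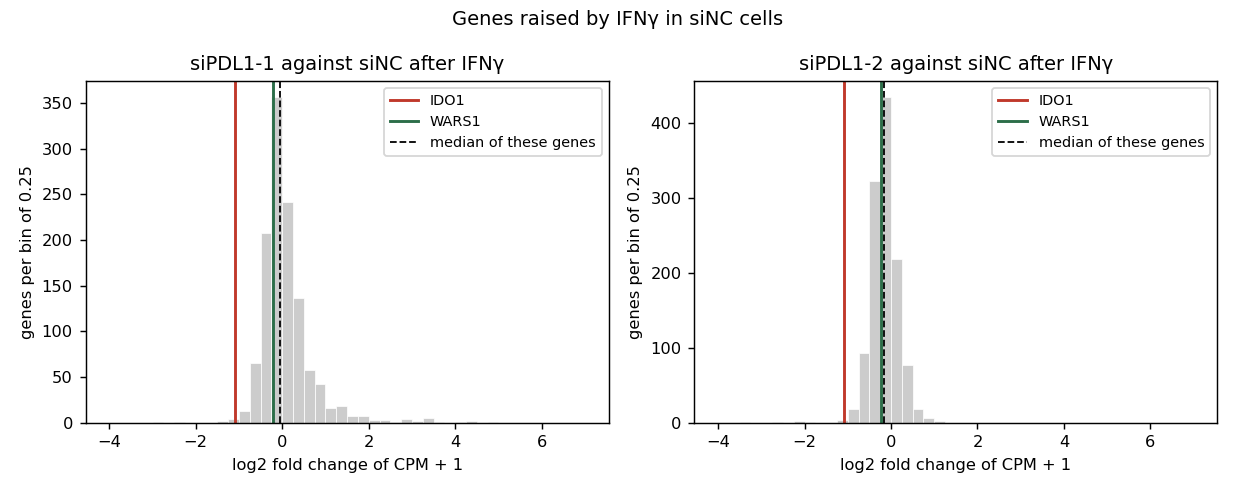
Histograms of the log2 fold change of CPM + 1 against siNC after IFNγ (horizontal axis, bins of 0.25) over the 1200 genes raised by IFNγ in siNC cells, for siPDL1-1 at left and siPDL1-2 at right. The *IDO1* line lies in the lower tail at -1.10 and -1.09. The *WARS1* line at -0.22 in both panels lies below the dashed median at left (-0.041) and closer to it at right (-0.17).

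*WARS1* after IFNγ was at 85.9% of siNC with siPDL1-1 (log2 fold change -0.22, FDR = 2.15e-04) and at 85.7% with siPDL1-2 (-0.22, FDR = 3.19e-04), below the fold threshold in both. The difference between the siRNAs was 0.0026, with a 95% interval of -0.074 to 0.079. These offsets are small beside the rise itself and larger than the spread within each pair of libraries.

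Among other genes of the IFNγ response, called differences from siNC after IFNγ went in both directions with siPDL1-1. With siPDL1-2 the only one called after IFNγ was *CD274*, the targeted gene. *IRF1*, a transcription factor induced by IFNγ, had 549 and 531 CPM with siNC, 361 and 337 CPM with siPDL1-1 (log2 fold change -0.63, FDR = 9.13e-06), and 369 and 396 CPM with siPDL1-2 (-0.50, under the fold threshold). With siPDL1-1, *JAK2*, the receptor's kinase, rose by 0.67 (FDR = 4.1e-06) and *SOCS1*, its feedback inhibitor, by 1.67 (FDR = 4.95e-08). With siPDL1-2, *JAK2* had 58.2 and 56.4 CPM against 61.3 and 65.1 CPM with siNC. *SOCS1* had 7.86 and 8.79 CPM there against 8.18 and 7.14 CPM. The part of these differences in the level of *IDO1* was not tested.

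*KYNU*, the kynureninase (chromosome 2 from 142877657 to 143055833), had 9.83 and 8.86 CPM with siNC after IFNγ, 6.95 and 5.98 CPM with siPDL1-1, and 5.86 and 6.41 CPM with siPDL1-2. All 4 *PD-L1* siRNA libraries were under both siNC libraries. Its log2 fold changes of -0.47 (FDR = 0.00194) and -0.53 (FDR = 0.00106) were below the fold threshold. For siPDL1-2 the edgeR value was -0.59 (FDR = 9.73e-04) and the DESeq2 value -0.59 (FDR = 0.00256), both just past that threshold. Without IFNγ *KYNU* was also lower, with 10.9 and 9.54 CPM with siNC, 8.35 and 7.79 CPM with siPDL1-1, and 9.37 and 8.73 CPM with siPDL1-2. Those log2 fold changes were -0.30 (FDR = 0.0351) and -0.16 (FDR = 0.243), not called. The dependence of its siRNA effect on IFNγ was -0.17 (FDR = 0.632) and -0.38 (FDR = 0.0586), also not called.

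*TDO2* after IFNγ had 7.28 and 7.74 CPM with siNC, 10.4 and 11.5 CPM with siPDL1-1, and 8.74 and 9.45 CPM with siPDL1-2. The *PD-L1* siRNA libraries were again above siNC, with log2 fold changes of 0.49 (FDR = 7e-04) for siPDL1-1 and 0.25 (FDR = 0.0565) for siPDL1-2, neither called. *QPRT* after IFNγ had 0.487 and 0.540 CPM with siNC, 0.965 and 1.13 CPM with siPDL1-1, and 0.704 and 1.49 CPM with siPDL1-2. The siPDL1-2 libraries of *QPRT* lay far apart, and neither siRNA passed (0.43, FDR = 0.0476 and 0.44, FDR = 0.0484).

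*AFMID* after IFNγ had 14.8 and 16.5 CPM with siNC, 12.9 and 12.1 CPM with siPDL1-1, and 12.5 and 13.6 CPM with siPDL1-2, log2 fold changes of -0.30 (FDR = 0.0202) and -0.25 (FDR = 0.059). *KMO*, the kynurenine 3-monooxygenase (chromosome 1 from 241532134 to 241595642), lay between 0.203 and 0.795 CPM in the 12 libraries, on 6 to 35 reads. It overlaps *OPN3* on the opposite strand, which averaged 26.2 CPM, and strand was not used in counting, so its values are uncertain. *HAAO*, which makes the precursor of quinolinate (chromosome 2 from 42767089 to 42792593), had 7 reads in all 12 libraries and none in the 4 siNC libraries. Differences in *HAAO* and *IDO2* were not tested, since neither passed the filter on low counts.

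Set directly against each other, siPDL1-1 and siPDL1-2 gave 0 calls by limma among the 8 genes without IFNγ, beside 4.35% of all genes, and 0 after IFNγ, beside 2.23%. edgeR and DESeq2 also called 0 in both states. At an unadjusted p under 0.05 there were 2 genes without IFNγ, *AHR* (log2 difference -0.38, FDR = 0.015) and *AFMID* (0.29, FDR = 0.0234), and 1 after IFNγ, *TDO2* (0.25, FDR = 0.077). The 95% intervals were -0.62 to -0.14 for *AHR*, 0.093 to 0.49 for *AFMID* and 0.050 to 0.44 for *TDO2*. Unstimulated *IDO1* lay at or under 0.0958 CPM with either siRNA, so with the added 1 the fold threshold was out of reach at these levels. With a pseudocount of 0.1 in limma it was called (-0.68, FDR = 0.00467), on 1 read against 6. The added 1 also shrank the difference of *AHR*, which was -1.20 by edgeR without IFNγ (FDR = 0.0314).

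Whether the siRNA effect itself depended on IFNγ was tested as a difference of differences. *IDO1* was the only gene of the 8 called, with -0.92 for siPDL1-1 (FDR = 2.68e-05) and -0.998 for siPDL1-2 (FDR = 3.2e-05), where 0.968% and 7.62% of all genes were called. These values rest on the 1 CPM added before the logarithm, since unstimulated *IDO1* lay far below 1 CPM. With edgeR on the reads they were 1.98 (FDR = 0.388) and -0.35 (FDR = 0.795), so the call and, for siPDL1-1, the direction were lost.

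*WARS1* does not have that limit, being near 100 CPM before stimulation. The difference between its IFNγ effect with siPDL1-1 and with siNC was -0.49 on the log2 scale (95% interval -0.60 to -0.38, FDR = 1.91e-05), and with siPDL1-2 it was -0.44 (-0.54 to -0.33, FDR = 5.52e-05). Both were short of the fold threshold. *TDO2* had a difference of -0.19 (FDR = 0.53) for siPDL1-1 and -0.44 (FDR = 0.0199) for siPDL1-2, and *QPRT* had -0.57 (FDR = 0.242) and -0.33 (FDR = 0.304).

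Among 13 other enzymes of kynurenine, quinolinate and NAD metabolism, 12 were tested. In each siRNA group 2 were called higher with IFNγ, beside 6.67% of all genes with siNC, 5.58% with siPDL1-1 and 3.62% with siPDL1-2. They were *KYAT3* and *NNMT* with siNC, *NAMPT* and *IL4I1* with siPDL1-1, and *IL4I1* and *NNMT* with siPDL1-2. The names differ partly through the fold threshold. Below it, *KYAT3* rose by 0.54 with siPDL1-1 (FDR = 5.14e-06) and 0.42 with siPDL1-2 (FDR = 9.71e-05). *NNMT* rose by 0.48 with siPDL1-1 (FDR = 7.97e-07) and *NAMPT* by 0.55 with siNC (FDR = 2.12e-06). *NAMPT* with siPDL1-2 (0.029, FDR = 0.748) and *IL4I1* with siNC (0.14, FDR = 0.386) showed no such rise. *NNMT*, which methylates nicotinamide, went from 60.3 and 59.2 CPM to 122 and 123 CPM with siNC (log2 fold change 1.02, FDR = 9.41e-11). *KYAT3*, a kynurenine aminotransferase, had a value of 0.68 (FDR = 3.99e-07) there and overlaps *RBMXL1* on the same strand.

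*IL4I1*, a secreted oxidase that also takes tryptophan, was the gene of this list with the largest difference between the siRNAs. It had 0.783 and 0.607 CPM in unstimulated siNC cells and 0.667 and 0.659 CPM with siPDL1-1. In unstimulated siPDL1-2 cells it had 0.192 and 0.366 CPM, the lowest of the 12 libraries (log2 fold change -0.41 against siNC, FDR = 0.0117, not called), and its call with IFNγ there (0.59) starts from these values. After IFNγ it had 0.899 and 0.830 CPM with siNC, 0.880 and 0.959 CPM with siPDL1-2, and 10.7 and 10.1 CPM with siPDL1-1. The siPDL1-1 libraries after IFNγ were the highest, with a log2 fold change of 2.61 against siNC (FDR = 3.37e-10) and 2.57 against siPDL1-2 (FDR = 5.43e-10). The dependence of this effect on IFNγ was 2.64 (FDR = 6.48e-08). *IL4I1* shares its strand and part of its region with *NUP62*, which averaged 105 CPM.

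Transporters of tryptophan and kynurenine were all 7 tested. With siNC, IFNγ lowered *SLC7A5* from 634 and 673 CPM to 424 and 380 CPM (log2 fold change -0.70, FDR = 1.69e-07), and with it *SLC3A2* (-0.73, FDR = 1.98e-08), the chains of the large neutral amino acid transporter. *SLC36A4*, a transporter that takes tryptophan, rose (0.59, FDR = 2.92e-04). With siPDL1-1 none of the 7 was called with IFNγ by limma, edgeR or DESeq2, with 5 at an unadjusted p under 0.05, 1 higher and 4 lower. *SLC7A5* went from 580 and 581 CPM to 474 and 426 CPM there, and *SLC3A2* from 258 and 255 CPM to 208 and 187 CPM. With siPDL1-2 the only call with IFNγ was a fall of *SLC7A11*, the cystine exchanger that also carries kynurenine (-0.83, FDR = 3.9e-04). Dependence of the siRNA effect on IFNγ was called for 0 of the 7 with siPDL1-1 and 3 with siPDL1-2, beside 0.968% and 7.62% of all genes.

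Of 11 partners and target genes of the AHR protein, 9 were tested. *NQO1*, a quinone reductase, fell with each siRNA in each state, from 517 and 521 CPM with siNC to 332 and 347 CPM with siPDL1-1 and 308 and 302 CPM with siPDL1-2 without IFNγ (log2 fold changes -0.61, FDR = 2.24e-08, and -0.77, FDR = 2.61e-09). *CYP1B1* moved the other way, from 1.76 and 1.62 CPM to 3.42 and 3.70 CPM and 3.86 and 4.00 CPM (0.76, FDR = 2.64e-04, and 0.87, FDR = 5.48e-05), and *ALDH3A1* was also called higher with each. *CYP1A1*, the target usually read for AHR activity, stayed at or under 0.147 CPM, *CYP1A2* had no read, and *CYP1B1* overlaps *RMDN2* on the opposite strand at 5.12 CPM. The list thus held called genes in both directions, and its median was 0.085 with siPDL1-1 and 0.12 with siPDL1-2, beside 0.016 and 0.028 over all genes.

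The serotonin and indole branch was little expressed, with 3 of 8 genes tested. *TPH2* had no read and *DDC*, the decarboxylase, reached 0.117 CPM at most. *MAOB* was the only gene of the branch called, lower with IFNγ in siPDL1-2 cells (-0.82, FDR = 7.16e-04). Of 6 genes that include *WARS2* and the sensing of amino acid shortage, IFNγ lowered only *TRIB3*, with siNC (-1.06, FDR = 5.87e-08), and *TRIB3* was higher with siPDL1-2 after IFNγ (0.72, FDR = 8.41e-06). *DDIT3*, a stress factor of the same pathway, was lower with siPDL1-1 without IFNγ (-0.68, FDR = 2.1e-07) and overlaps *MARS1* on the opposite strand at 307 CPM. Among the synthetases, *FARSB*, a phenylalanyl-tRNA synthetase chain, was called lower with each siRNA in each state, between -0.79 and -0.61.

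The genes whose levels over the 12 libraries were most like those of *IDO1* (Pearson r of log2(CPM + 1) among 14278 genes) were *UBD* (r = 0.999), *BTN3A3*, *GBP5*, *GBP2* and *IRF1*. The 12 points fall into unstimulated and IFNγ libraries, and no p is given. After IFNγ the log2 fold changes of *UBD* were -0.57 for siPDL1-1 and -0.62 for siPDL1-2, and *GBP2* had -0.55 and -0.42, each smaller in size than that of *IDO1*. For *WARS1* the nearest genes were *PSMB9* (r = 0.999), *GBP5*, *CIITA*, *CD74* and *IL18BP*, and in the same comparisons these had -0.0053 and -0.061, -0.39 and -0.61, -0.51 and -0.21, -0.010 and -0.021, and 0.12 and 0.011, in that order. For *KYNU* they were *SLC39A14* (r = 0.959), *EVI2A*, *ARMH3*, *AFF2* and *GNAZ*, with -0.39 and -0.37, -0.75 and -0.80, -0.16 and -0.13, -0.31 and -0.40, and -0.32 and -0.25 in that order.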

How the data were processed

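RNA of 12 U251 libraries was sequenced. Per the methods, the authors used CLC Genomics Workbench to map trimmed reads against Ensembl GRCh38, took both strands together and normalized the counts. The deposited values are normalized CPM, an expression signal. From the sums of the libraries it was taken to be CPM divided by a TMM factor, which the paper's methods do not name. Extraction and instrument are described differently in the methods and in the labels. From the deposited values whole reads were recovered for 100% of entries (tolerance 0.01 read), 17101069 to 55657393 per library. The members and lists were chosen with earlier results of these data known.

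Genes passing edgeR's filterByExpr (minimum count 10, total 15), 17982 in all, were tested with limma 3.58.1 (trend, robust; R 4.3.3) on log2(CPM + 1), as 6 groups in 1 fit. The added 1 understates changes of low genes. P-values were adjusted over all genes tested (Benjamini-Hochberg), and a gene was called at FDR under 0.01 and fold change over 1.5. P-values rest on 1 estimate of the spread per gene, pooled over the 6 groups of 2 libraries and moderated toward that of other genes. For *IDO1* this pool includes unstimulated libraries near 0 CPM. With a pseudocount of 0.1 its limma FDR after IFNγ was 1e-04 for siPDL1-1 and 1.91e-04 for siPDL1-2. Alternatives were edgeR 4.0.16 and DESeq2 1.42.0 on the recovered reads, DESeq2 size factors, plain CPM, a pseudocount of 0.1, no filter, separate fits per stimulation state, a replicate block, FDR under 0.05 with no fold threshold, and leaving out each library. All 10 members are named; of the other lists, at most the 4 called genes with the largest change per list and comparison; and the 5 genes most like *IDO1*, *WARS1* and *KYNU* with a mean of at least 1 CPM. Other list or marker genes were named after their values were seen. 1 gene of the IFNγ response list is not reported here. Exon lengths are unions of GENCODE v44 exons. The tests were tested on simulated data.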

Additional observations from a re-analysis of the deposited data

Results flagged for a closer look

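The IFNγ response of *IDO1* differed between siNC and each *PD-L1* siRNA by the test of the difference itself, with values of -0.92 for siPDL1-1 and -0.998 for siPDL1-2 on log2(CPM + 1). Both values come from a gene with 1 to 8 reads per unstimulated group, and neither was called on the recovered reads.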

How the results depend on the processing

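The calls of *IDO1* and *WARS1* with IFNγ and of *IDO1* after IFNγ held in every alternative run. Of the 8 genes, the number called moved by over 1.5 times in these cases. At FDR under 0.05 with no fold threshold it was 6 with IFNγ in siPDL1-1 cells, 5 in siPDL1-2 cells, 4 for siPDL1-1 and 5 for siPDL1-2 without IFNγ, 2 between the siRNAs without IFNγ, 6 for siPDL1-1 and 4 for siPDL1-2 after IFNγ, and 2 and 3 for the dependence on IFNγ. With edgeR, with DESeq2 and with a pseudocount of 0.1 it was 2 for siPDL1-2 after IFNγ and 0 for each dependence, and with the pseudocount it was 1 between the siRNAs without IFNγ. For the siPDL1-1 dependence of *IDO1*, edgeR gave 1.98, DESeq2 2.29 and the pseudocount of 0.1 0.029, all opposite in sign to the main value, because unstimulated *IDO1* lies under 1 CPM. Leaving out 1 library gave 1 to 2 for siPDL1-2 without IFNγ (1 without siNC unstimulated replicate 1 or siPDL1-2 unstimulated replicate 2) and 1 to 2 for siPDL1-2 after IFNγ (2 without siNC IFNγ replicate 2 or either siPDL1-2 IFNγ replicate), and left the other counts within 1.5 times. Labels number the libraries of each group 1 and 2 without saying what a number shares. Same-numbered libraries deviated from their group means with correlations of -0.187 to 0.252 over 15 pairs of groups, and the fit with a replicate block called 2 with IFNγ in siNC cells and 1 after IFNγ with each siRNA, as without it. Depth limits *IDO2*, *HAAO*, *KMO*, *AHR*, *QPRT* and unstimulated *IDO1*, and 2 libraries per group limit the rest.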
